A study of Mus musculus with 6 samples.

Results

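The nuclear-encoded subunits of oxidative phosphorylation were measured in Sertoli cells labelled as an Rb1 conditional knockout and in control Sertoli cells. Members were the probes whose platform gene symbol began with Ndufa, Ndufb, Ndufc, Ndufs, Ndufv, Uqcr, Atp5 or Cox4 to Cox8, or was Sdha, Sdhb, Sdhc, Sdhd or Cyc1, with the Ndufaf assembly factors left out. The rule used gene names only, and found 123 probes for 80 genes among 45281 probes and 19057 genes. By complex, these were 36 genes for complex I, 4 for complex II, 8 for complex III, 16 for complex IV and 16 for complex V. Gene expression was read on 6 Illumina bead arrays, 3 labelled Rb cKO and 3 labelled Control. All were of Sertoli cells taken by fluorescence-activated sorting on a Sox9-GFP reporter from mice aged 6 weeks on a C57B6J/129SvEv background. The cKO mice were Rb1 flox/-; Amh-Cre +, and the Control mice were Rb1 flox/- without the Cre. Both groups therefore carried 1 null and 1 floxed Rb1 allele, so that the controls had a single intact copy. Only the cKO mice carried Cre, which the Amh promoter drives in Sertoli cells. Separate animals are not named for the arrays, so the p-values rest on a spread between samples that may be technical.

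Oxidative phosphorylation makes most of the ATP of a respiring cell. Complex I takes electrons from NADH and complex II takes them from succinate, complex III passes them to cytochrome c, and complex IV hands them to oxygen. Complexes I, III and IV pump protons across the inner mitochondrial membrane, and complex V, the ATP synthase, uses their return to make ATP. Sertoli cells, the somatic nurse cells of the seminiferous tubule, are known for high glycolysis and for feeding lactate to germ cells, whose later stages use isoforms of several respiratory proteins that somatic cells lack. The retinoblastoma protein is best known for restraining E2F transcription factors. The nuclear genes of the respiratory chain are known targets of NRF1, of the ETS factor GABP (also called NRF2) and of YY1.

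The promoters of the members are shown first, since they hold sequences the selection did not use. RefSeq promoters (GRCm38.p6), each of 300 bases from 250 before to 50 after the start, were found for 65 of the 80 members by symbol, 70 promoters in all. The motifs searched on both strands were NRF1 (GCGC, then any base, then TGCGC), ETS (CCGGAAG), YY1 (AAGATGGC) and E2F (TTTCGCGC, TTTGGCGC, TTTCCCGC or TTTGGCGG). The NRF1 motif can match the same bases on both strands, and the last 3 letters of the ETS motif are the first of the YY1 motif, so that 1 stretch can hold both; Atp5j was the only member with both ETS and YY1. NRF1 was found in 16 member genes, or 24.3% of their promoters against 4.6% of all 32851 promoters in the table. ETS was found in 16 genes (22.9% of promoters against 8.86%), and YY1 in 10 genes (14.3% against 2.75%). Among the 9932 tested genes with a promoter, 10.5% held NRF1, 18% ETS and 4.77% YY1; the members' shares per gene were 24.6%, 24.6% and 15.4%. The E2F letters were found in 1 member, Cox5a (1.43% of member promoters against 2.37% of all promoters, and 4.59% of tested genes). The median GC content was 58.0% in member promoters, 52.7% in all promoters and 59.7% in promoters of tested genes. Atp5h, Atp5k, Cox6a1 and Sdhd held both NRF1 and ETS, and 3 of them are printed as examples from complexes V, IV and II. Cox5a is printed as the member with the E2F letters, and Cox6b1 and Cox6b2 as the somatic and the testis form of 1 complex IV subunit. Sequences run 5′ to 3′ along the gene, and capitals mark the motifs.
Atp5k, chr5:108434350-108434649, minus strand: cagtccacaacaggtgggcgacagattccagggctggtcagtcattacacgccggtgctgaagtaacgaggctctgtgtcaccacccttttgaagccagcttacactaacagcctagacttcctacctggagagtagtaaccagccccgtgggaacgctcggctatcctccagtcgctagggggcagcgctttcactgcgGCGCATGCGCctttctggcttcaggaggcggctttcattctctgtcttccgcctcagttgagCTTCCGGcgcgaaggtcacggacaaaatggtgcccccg
Cox6a1, chr5:115348909-115349208, minus strand: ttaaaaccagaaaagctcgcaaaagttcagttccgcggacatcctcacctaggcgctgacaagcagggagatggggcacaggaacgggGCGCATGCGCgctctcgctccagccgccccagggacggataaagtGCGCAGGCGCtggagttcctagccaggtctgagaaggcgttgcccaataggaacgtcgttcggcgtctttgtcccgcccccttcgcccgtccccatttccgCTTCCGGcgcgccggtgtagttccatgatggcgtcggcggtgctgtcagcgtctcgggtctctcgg
Sdhd, chr9:50603800-50604099, minus strand: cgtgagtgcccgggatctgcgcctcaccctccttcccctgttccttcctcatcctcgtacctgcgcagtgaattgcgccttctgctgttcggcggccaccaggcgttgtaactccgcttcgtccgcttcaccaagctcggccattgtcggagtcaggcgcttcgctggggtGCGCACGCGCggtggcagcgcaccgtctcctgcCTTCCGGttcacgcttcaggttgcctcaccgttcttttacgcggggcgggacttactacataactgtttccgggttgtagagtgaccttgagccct
Cox5a, chr9:57520982-57521281, plus strand: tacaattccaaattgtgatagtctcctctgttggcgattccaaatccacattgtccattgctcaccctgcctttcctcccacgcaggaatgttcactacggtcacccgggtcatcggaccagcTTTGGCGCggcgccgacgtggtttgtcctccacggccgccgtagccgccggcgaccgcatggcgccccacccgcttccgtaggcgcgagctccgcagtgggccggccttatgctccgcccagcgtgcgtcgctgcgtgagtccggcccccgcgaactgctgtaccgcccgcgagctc
Cox6b1, chr7:30626065-30626364, minus strand: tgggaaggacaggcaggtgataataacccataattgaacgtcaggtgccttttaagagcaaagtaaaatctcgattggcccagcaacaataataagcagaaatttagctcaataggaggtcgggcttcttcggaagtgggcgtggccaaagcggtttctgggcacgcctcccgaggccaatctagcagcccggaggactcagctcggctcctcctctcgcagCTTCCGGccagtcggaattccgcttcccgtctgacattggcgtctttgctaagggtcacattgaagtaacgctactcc
Cox6b2, chr7:4753045-4753344, minus strand: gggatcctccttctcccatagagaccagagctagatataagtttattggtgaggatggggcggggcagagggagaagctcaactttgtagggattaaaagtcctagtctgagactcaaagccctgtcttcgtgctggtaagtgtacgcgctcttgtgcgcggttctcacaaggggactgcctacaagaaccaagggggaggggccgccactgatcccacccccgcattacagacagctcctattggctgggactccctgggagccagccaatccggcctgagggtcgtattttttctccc
In Atp5k the NRF1 match began 50 bases before the start and the ETS match 12 bases after it. Cox6a1 held a pair of NRF1 matches, beginning 162 and 117 bases before the start, and an ETS match 16 bases before it. In Sdhd the NRF1 match lay 79 and the ETS match 46 bases before the start. In Cox5a the E2F letters began 127 bases before the start. Cox6b1 held the ETS letters 28 bases before its start, and Cox6b2 held none of the motifs. A match here is a description of the letters, not of binding.

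The state of the arrays touches every result. Both Rb1 probes were lower on all cKO arrays: 1 probe read 8.24, 7.73 and 7.44 in log2 intensity on cKO arrays 1 to 3 and 9.10, 9.34 and 8.64 on the controls, and the other 10.37, 9.92 and 9.36 against 10.53, 11.08 and 10.98. Neither passed the threshold (limma adjusted p = 0.399 and 0.668), and their place relative to the deleted part is not known here, so that they check the labels only in part. Of all probes, 42.98% to 53.48% were detected per array. The first principal component held 58.9% of the variance and set cKO 1 (-113.9) and Control 3 (110.2) at its ends, with the other 4 arrays between -34.3 and 31.4. All 15 measured Sertoli markers, Sox9, Gata4 and Fshr among them, had lower means in cKO (median log2 difference -0.43; summed intensity 51074 to 65743 in cKO and 62769 to 76551 in controls). Markers of other testis cells were also read, most with higher means in cKO: 9 of 10 for spermatogonia (summed intensity 5337 to 6402 in cKO, 4364 to 5026 in controls), 9 of 10 for spermatocytes (64544 to 76086 against 48369 to 72537), 9 of 12 for spermatids (111726 to 140721 against 99809 to 139369), 5 of 6 for peritubular cells (7941 to 14623 against 5163 to 7263), 4 of 5 for Leydig cells (2326 to 8616 against 1196 to 2982), 4 of 5 for leukocytes (7588 to 8133 against 6755 to 9543) and 7 of 7 for endothelium (665 to 1287 against 336 to 614). The markers Zbtb16, Dmc1, Hormad1, Sycp3, Hsd3b1, Cnn1, Tagln, Ptprc and Kdr were detected on no array. The part of these lists in the values below was not tested. In sorted cells read in bulk, fewer cells of a type and less RNA per cell cannot be told apart.

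No oxidative phosphorylation subunit differed between cKO and Control cells past the threshold. Probes detected on at least 3 arrays were tested, which held 106 member probes and 75 member genes. In limma, 0 member probes were called in either direction at an adjusted p of 0.05, and 0 had an unadjusted p under 0.05. Over all 21805 tested probes 31 were called (0.142%), all higher in cKO, and 6.39% had an unadjusted p under 0.05. The smallest p of a member was 0.0631 (limma adjusted p = 0.766), for Atp5e. With a replicate block limma called 0 probes of any kind, and 3 member probes higher and 2 lower had an unadjusted p under 0.05, against 14.9% of all tested probes. Without cKO 1 and Control 3, limma again called 0 members, against 6 of all probes.

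The members' differences lay near those of all genes. Taking the brightest tested probe of each gene, the log2 difference of cKO minus Control was above 0 for 51 and below 0 for 24 of the 75 members, with a median of 0.12. The median over all 12277 tested genes was also 0.12, with 61.3% above 0 against 68.0% of members. This split depended on how arrays were scaled: it was 63 to 12 under median scaling (84.0%, against 67.6% of all genes; medians 0.30 and 0.20) and 62 to 13 in the deposited log2 values (82.7% against 66.9%; medians 0.28 and 0.15). Without cKO 1 and Control 3 it was 47 to 28, with a median of 0.03, and 46.3% of all genes were above 0. The arrays were read more evenly for members than for the table as a whole, with a median within-group SD of 0.25 over member probes and 0.42 over all tested probes. Members were not set against probes of like intensity, for this or for the intervals that follow. The 95% interval of the difference lay within 2-fold in both directions for 51 of 75 members (68.0%) and for 37.7% of all genes. It lay above a 2-fold loss for 65 of the 75 members and below a 2-fold gain for 60. Over all 12277 tested genes these counts were 9245 and 7067.

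**Figure D1:**
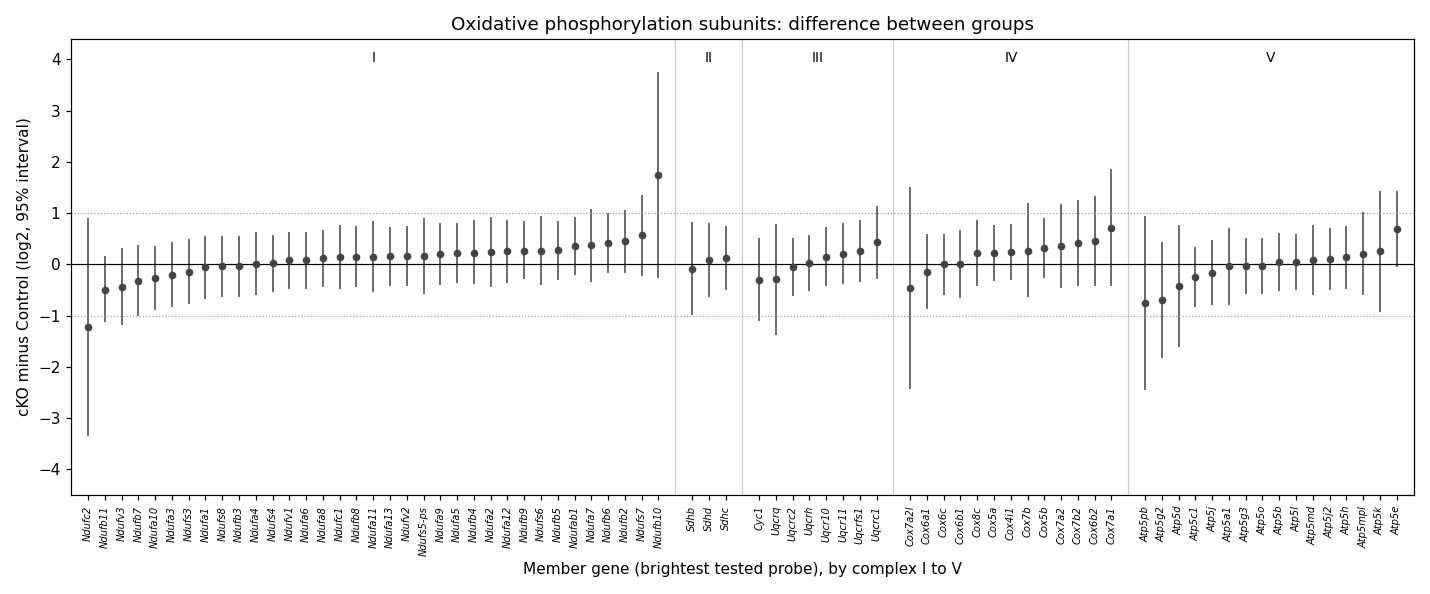
Log2 difference of cKO minus Control with its 95% interval from limma (vertical axis) for the 75 tested member genes, ordered within complexes I to V (horizontal axis, brightest tested probe of each gene; 3 arrays a group); dotted lines mark 2-fold. Every interval spans 0, and the widest belong to Ndufb10, Ndufc2 and Cox7a2l.

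Without regard to a test, the 3 cKO arrays all lay above the 3 Control arrays for 13 of the 106 member probes (12.3%, against 8.04% of all tested probes) and all below for 1 (0.943% against 4.01%). At the gene level these were Ndufab1, Ndufb2, Ndufb6, Ndufb9, Ndufb10, Cox4i1, Cox5a, Cox5b and Atp5e on the higher side, and Atp5c1 on the lower. These 9 genes were 12.0% of the 75 members, against 9.56% of all tested genes, and the 1 lower was 1.33% against 4.33%. Under median scaling 6 genes lay wholly above (8.0%, against 10.3% of all genes) and 0 below (against 2.81%), so that the members' higher share was then under that of all genes. In the deposited log2 values 4 lay above (5.33% against 6.62%) and 1 below (1.33% against 3.06%). Without cKO 1 and Control 3, where 2 arrays a group remain, 14 lay above (18.7% against 13.2%) and 8 below (10.7% against 15.7%). Compared by replicate number, cKO was above its Control in 3 of 3 pairs for 38 member probes (35.8%, against 26.7% of all tested probes) and below in 3 of 3 for 12 (11.3% against 15.3%). What same-numbered arrays share is not given in the labels. Only some of the genes in these counts are described by complex below. Arrays are given in log2 normalised intensity for cKO arrays 1 to 3 and then Control arrays 1 to 3.

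**Figure D2:**
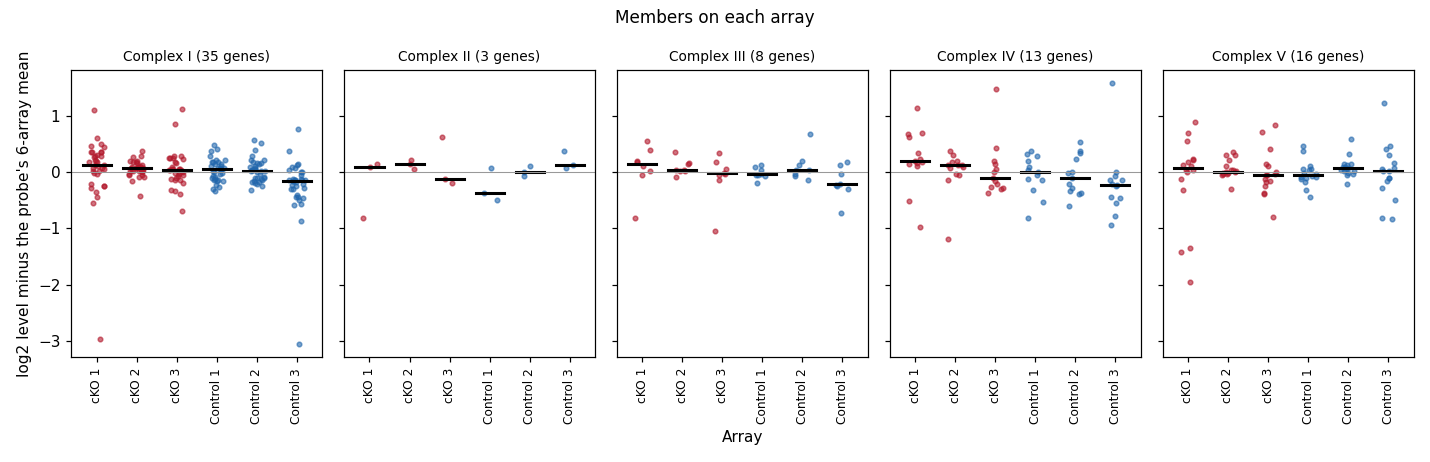
Log2 level of each member gene minus the mean of its probe over the 6 arrays (vertical axis), for each array (horizontal axis; cKO red, Control blue) and complex; points are genes and black bars are medians. The medians of complex IV run from 0.21 on cKO 1 to -0.22 on Control 3, and the single low points of complex I on cKO 1 and Control 3 are Ndufc2 and Ndufb10.

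Complex I, the NADH dehydrogenase, had 35 tested genes, with 25 differences above 0, 10 below and a median of 0.15; limma called 0. Ndufs7, an iron-sulfur subunit close to the ubiquinone site, read 11.91, 11.47 and 11.35 against 11.41, 11.17 and 10.43, a difference of 0.57 ± 0.34 (SE; limma adjusted p = 0.766). The groups overlapped, and without Control 3 the difference was 0.28. Ndufv1, which holds the NADH site, read 12.79 to 12.88 in cKO and 12.64 to 12.94 in controls, and its difference was 0.08 ± 0.24. Ndufs1, the largest subunit of the core, was detected on no array and could not be compared.

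Among the brightest probes, the highest and the lowest difference of the members were both those of accessory subunits of the complex I membrane arm, Ndufb10 and Ndufc2. Ndufb2, of the same arm, read 9.18, 9.11 and 8.84 against 8.80, 8.65 and 8.33, a difference of 0.45 ± 0.26 with no overlap between the groups (limma adjusted p = 0.766). Ndufb6 was close to it, at 12.42, 12.27 and 12.12 against 11.97, 11.96 and 11.63, and its second probe gave the same difference of 0.42. On the brightest probe of both genes the lowest cKO array was above the highest Control array. The second Ndufb6 probe overlapped, at 8.74, 8.51 and 8.01 against 8.42, 8.06 and 7.51. Ndufb11 lay the other way, at 5.62, 5.55 and 6.01 against 6.16, 6.49 and 5.98, a difference of -0.49 ± 0.28, with cKO 3 and Control 3 overlapping. Its second probe gave 0.07. Both Ndufb11 probes read low, the second at 5.29 to 6.00, though they were detected on all 6 arrays.

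Ndufb10, a further accessory subunit of the membrane arm, had the highest difference of all members, 1.75 ± 0.86 (3.36-fold; limma adjusted p = 0.766). It read 11.32, 10.60 and 11.35 in cKO and 10.44, 10.43 and 7.15 in controls. The value rested on Control 3: without that array it was 0.66, and the second Ndufb10 probe gave -0.44 ± 0.33. Ndufc2, a subunit of the same arm, had the lowest difference among the brightest probes, -1.22 ± 0.91, and rested in turn on cKO 1. It read 7.75, 10.99 and 11.58 in cKO and 11.20, 11.30 and 11.48 in controls, and its second probe, at 6.35, 6.39 and 6.02 against 5.83, 5.89 and 5.47, gave 0.52 ± 0.26. Without cKO 1 the brighter Ndufc2 probe gave -0.04.

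Some symbols met the rule without naming a complex I subunit alone. Ndufab1 is also the mitochondrial acyl carrier protein; its brightest probe read 12.44, 12.15 and 12.17 against 11.81, 11.94 and 11.94, a difference of 0.36 ± 0.24 without overlap. Ndufa4 is now placed in complex IV, and its difference was 0.01 ± 0.26. Ndufs5-ps is annotated as a pseudogene, and its probe, with a difference of 0.17 ± 0.31, may share signal with its parent gene. Cox7a2l, counted here in complex IV, is an assembly factor of supercomplexes.

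Complex II, the succinate dehydrogenase, is the only complex with no subunit encoded in mitochondrial DNA. Of its 4 genes Sdha, the flavoprotein, was detected on no array. The iron-sulfur subunit Sdhb read 10.01, 10.89 and 11.45 against 10.90, 10.76 and 10.95, a difference of -0.08 ± 0.39. Its groups overlapped, with cKO 1 lowest and cKO 3 highest. The membrane anchors Sdhc (0.12 ± 0.26) and Sdhd (0.08 ± 0.31) also overlapped between groups, and limma called none of the 3. The sign of Sdhb turned under both other scalings, to 0.05 and 0.03.

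Complex III had 8 tested genes, 5 above 0 and 3 below, with a median of 0.09 and no call in limma. Uqcrc1, a core protein, read 12.69, 12.93 and 12.76 against 12.71, 12.51 and 11.86, a difference of 0.43 ± 0.30 (limma adjusted p = 0.766). The difference was 0.18 without Control 3. Uqcr11, a small accessory subunit, gave 0.21 ± 0.25. Uqcrfs1, the Rieske iron-sulfur protein, gave 0.26 ± 0.26 from a probe that read 5.48 to 5.91 in cKO and 5.21 to 5.48 in controls. Cyc1, cytochrome c1, read 8.97, 9.82 and 10.14 against 9.84, 10.00 and 9.98, a difference of -0.30 ± 0.35, and without cKO 1 and Control 3 it was 0.06. Uqcrh, the hinge protein, stayed between 12.94 and 13.02 on all 6 arrays, and its 95% interval ran from -0.51 to 0.57.

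Complex IV, cytochrome c oxidase, had a median of 0.24, with 11 of 13 tested genes above 0 and none called by limma. The median was 0.45 under median scaling and 0.40 in the deposited log2 values, but 0.04 without cKO 1 and Control 3. Cox4i1, the ubiquitous form of subunit 4, read 13.61, 13.54 and 13.47 against 13.28, 13.41 and 13.20, with no overlap and a difference of 0.24 ± 0.24. Cox5a, whose promoter held the E2F letters, read 13.71, 13.68 and 13.75 against 13.61, 13.40 and 13.46, a difference of 0.22 ± 0.23. Cox5b read 13.34, 13.32 and 13.40 against 13.14, 13.19 and 12.76, a difference of 0.32 ± 0.25 (limma adjusted p = 0.766). Its second probe gave 0.14, with overlap between the groups. These are subunits found in most tissues. On the brightest probe each of the 3 lay wholly above its controls, by 1.17- to 1.25-fold in the means. These were 3 of 13 genes (23.1%), against 9.56% of all tested genes. Under median scaling and in the deposited log2 values 0 of the 13 did so, against 10.3% and 6.62% of all genes. Without cKO 1 and Control 3, where 2 arrays a group remain, 3 of the 13 lay wholly above (23.1%, against 13.2% of all genes).

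Several complex IV subunits have tissue forms. The testis forms were read beside the somatic ones: Cox6b2 at 12.04, 11.61 and 11.26 against 11.78, 11.13 and 10.62 (0.46 ± 0.38), Cox7b2 at 8.26, 7.75 and 7.30 against 7.85, 7.20 and 7.02 (0.42 ± 0.36), and Cox8c at 14.35, 13.98 and 14.01 against 14.21, 13.66 and 13.80 (0.22 ± 0.27). On these probes all 3 overlapped between groups, and cKO was above its same-numbered Control in each pair. Their somatic partners gave 0.01 ± 0.29 for Cox6b1 and 0.27 ± 0.39 for Cox7b. The second Cox6b1 probe gave -0.20 ± 0.29. The Cox7b probe read low, at 4.90 to 6.25, and was detected on only 2 of the 3 Control arrays. The second Cox6b2 probe gave -0.46 ± 0.75, of opposite sign, and read lowest on cKO 1 (5.29). The difference of the brighter Cox6b2 probe was -0.02 without cKO 1 and Control 3. Most spermatocyte and spermatid markers also had higher means in cKO, as given above, and their part in these values was not tested.

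**Figure D3:**
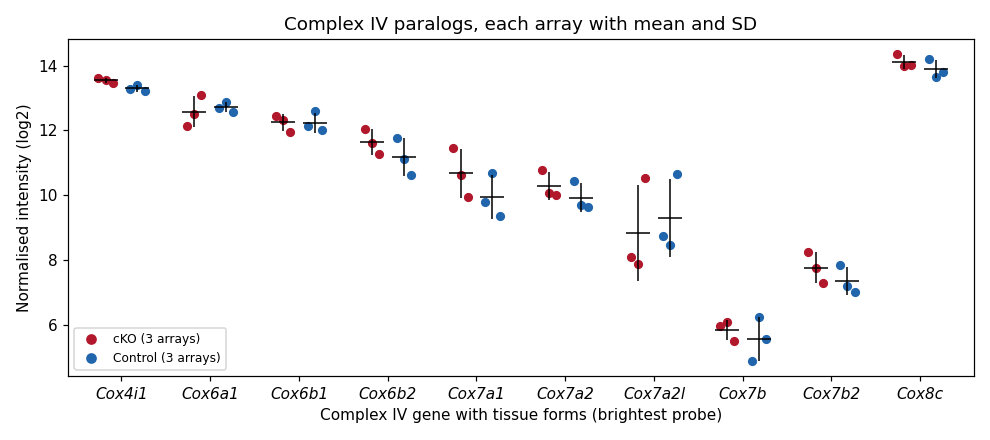
Normalised log2 intensity (vertical axis) of 10 complex IV genes with tissue forms (horizontal axis, brightest probe), each point 1 array (cKO red, Control blue), with the mean and SD of 3 arrays. The groups overlap for all but Cox4i1, and the spread within a group is widest for Cox7a2l; levels of different genes come from different probes and are not comparable.

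The heart and skeletal muscle form Cox7a1 read 11.46, 10.62 and 9.93 against 9.78, 10.68 and 9.37, a difference of 0.72 ± 0.49 (limma adjusted p = 0.766). It overlapped, and was 0.04 without cKO 1 and Control 3. Cox7a2, its liver form, gave 0.36 ± 0.35, and Cox7a2l gave -0.46 ± 0.84, reading 8.09, 7.87 and 10.54 against 8.75, 8.47 and 10.66, with array 3 high in both groups. The muscle forms Cox6a2 and Cox8b were detected on 1 and 2 arrays, and Cox4i2, the form of lung, on none, so that these 3 were not tested. Cox6a1, the liver form of subunit 6a, gave -0.14 ± 0.31; its sign turned under median scaling (0.05) and in the deposited log2 values (0.02).

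Complex V, the ATP synthase, was split evenly, with 8 of 16 tested genes above 0 and 8 below, and a median of 0.01. Under median scaling and in the deposited log2 values 12 of 16 were above 0, and without cKO 1 and Control 3 the count was 5 (median -0.03). The catalytic subunit Atp5b read 14.54, 14.39 and 14.20 against 14.33, 14.39 and 14.24, a difference of 0.05 ± 0.24. Atp5e, the small epsilon subunit of the central stalk, read 9.23, 8.75 and 8.64 against 8.35, 8.47 and 7.72. Its groups did not overlap, and the difference of 0.69 ± 0.32 (1.61-fold; 95% interval -0.05 to 1.43) carried the smallest p of any member. With the replicate block its p was 0.0346 (limma adjusted p = 0.305), and without cKO 1 and Control 3 the difference was 0.28.

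Atp5c1, the gamma subunit that turns within the catalytic head, was the member whose cKO arrays all lay below the controls: 13.30, 13.22 and 12.87 against 13.32, 13.40 and 13.42, a difference of -0.25 ± 0.25. The highest cKO array and the lowest Control array were almost equal. The genes Atp5g2 and Atp5g3 encode the same mature c subunit of the proton-turned ring. Atp5g2 read 7.86, 9.25 and 9.71 against 9.32, 9.88 and 9.70 (-0.69 ± 0.49, and -0.15 without cKO 1), and Atp5g3 13.75, 13.66 and 13.66 against 13.60, 13.80 and 13.77 (-0.03 ± 0.23; 0.16 under median scaling and 0.14 in the deposited values). Atp5pb, a subunit of the peripheral stalk, gave -0.76 ± 0.72 on its brightest probe and 0.03 without cKO 1, or 0.46 without cKO 1 and Control 3. Its other tested probes gave 0.73 ± 0.48, 0.53 ± 0.29 and -1.40 ± 1.08.

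Several probes of 1 gene did not always give the same difference. Of 24 members with over 1 tested probe, 15 had differences within 0.3 of each other, and 8 had probes of opposite sign, with the widest gaps for Ndufb10 (2.19), Atp5pb (2.14), Ndufc2 (1.74) and Ndufab1 (1.36). The 4 probes of Ndufs4, a subunit of the electron-input module, gave 0.02 to 0.16. The probes of Atp5o, the oligomycin-sensitivity protein of the stalk, gave differences of the same sign with a gap of 1.71: 1 probe lay between 13.38 and 13.50 on all arrays (-0.03 ± 0.23), and the other read 4.46 on cKO 1 and 8.54 to 9.68 elsewhere. The latter gave -1.74 ± 1.20, the lowest difference of the 106 tested member probes (limma adjusted p = 0.766). Such single low readings were most frequent on cKO 1, which lay over 1 log2 unit below every other array for 9 member probes (8.49%, against 6.15% of all tested probes). These were probes of Cox6b2, Ndufab1, Atp5d, Ndufa8, Atp5g2, Atp5o and Ndufc2 and a pair of Atp5pb probes. Control 3 lay so far below for 1 member probe (0.943% against 2.72%), that of Ndufb10.

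**Figure D4:**
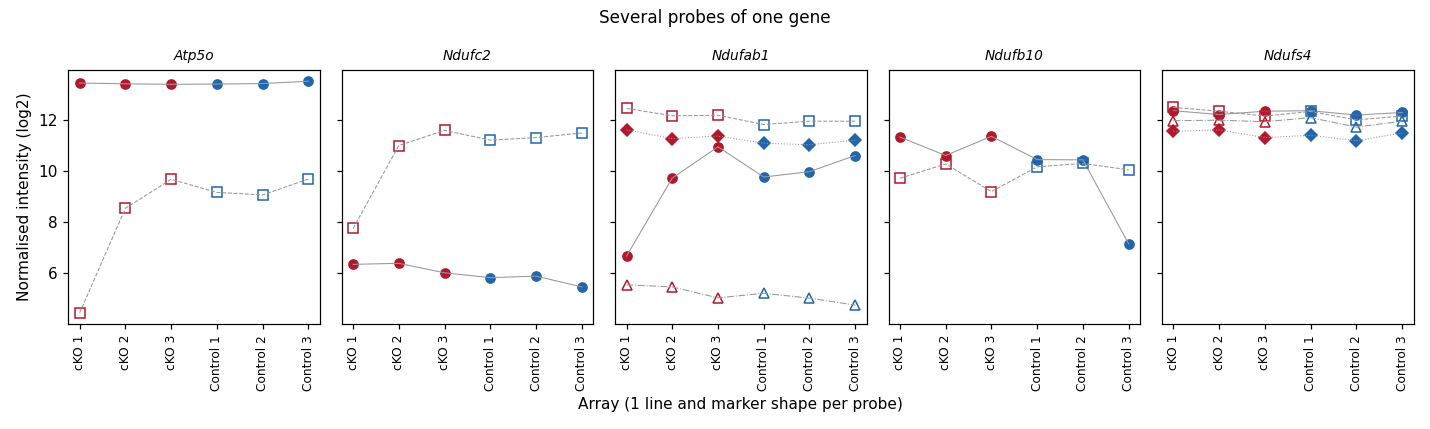
Normalised log2 intensity (vertical axis) on each array (horizontal axis; cKO red, Control blue) for every tested probe of Atp5o, Ndufc2, Ndufab1, Ndufb10 and Ndufs4, with 1 line and marker shape a probe. One probe each of Atp5o, Ndufc2 and Ndufab1 drops on cKO 1 and one of Ndufb10 on Control 3, while no other probe shown has a single array that far from the rest.

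The subunits encoded in mitochondrial DNA are made by a separate genome and polymerase and must be matched to the nuclear ones. Of the 8 on the array, 6 had differences below 0, with a median of -0.16 and none called by limma; the median was -0.02 under median scaling and -0.04 in the deposited log2 values. The cKO arrays lay wholly below the controls for ND6 (5.59, 5.41 and 4.83 against 5.67, 6.21 and 5.75; -0.60 ± 0.31), COX2 (13.89, 14.00 and 13.92 against 14.31, 14.16 and 14.21; -0.29 ± 0.23) and ATP6 (13.82, 14.03 and 13.97 against 14.06, 14.17 and 14.11; -0.17 ± 0.23). These were 3 of 8 genes (37.5%), against 4.33% of all tested genes. Of them, the ND6 probe read low, at 4.83 to 6.21, and was detected on only 2 of the 3 cKO arrays. Under median scaling 1 of the 8 lay wholly below (12.5%, against 2.81% of all genes), and in the deposited values 0 did, against 3.06%. Without cKO 1 and Control 3, where 2 arrays a group remain, 4 of the 8 lay wholly below, against 15.7% of all genes. Compared by replicate number, 5 of the 8 were below their Control in 3 of 3 pairs and 0 above. Over all 12277 tested genes these counts were 1712 and 3739. ND4L gave -1.84 ± 1.27, from 6.58, 7.31 and 9.67 against 7.94, 8.68 and 12.47, a probe whose level varied between arrays of both groups. CYTB, the cytochrome b of complex III, read 14.42 to 14.62 in cKO and 14.43 to 14.54 in controls, a difference of 0.02 ± 0.24.

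The genes around the complexes also held no call in limma. Of the assembly factors, 37 of 41 genes were tested, 21 above 0 and 16 below (median 0.04); the smallest p belonged to Lyrm7, which matures the Rieske protein (0.72 ± 0.31), Coa3 of complex IV (0.63 ± 0.28) and Sdhaf1 of complex II (0.53 ± 0.25), each with a limma adjusted p of 0.766. Of 13 tested electron carriers and ubiquinone genes 7 were above 0 (median 0.00), led by Coq10b (-0.60 ± 0.32), Coq7 (0.55 ± 0.32) and Coq9 (-0.73 ± 0.44). For Coq9, cKO 1 read 8.22 and the other arrays 9.67 to 10.06. The 15 tested regulators had 8 above 0 (median 0.01). Among them Polg2, the accessory subunit of the mitochondrial DNA polymerase, gave -0.82 ± 0.32, Tfb1m, which methylates mitochondrial ribosomal RNA, 0.68 ± 0.27, and the coactivator Ppargc1b -0.70 ± 0.33 (limma adjusted p = 0.748, 0.758 and 0.766). Ppargc1a, Yy1 and Gabpb2 were not tested, having been detected on 1, 0 and 1 arrays.

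The list for the tricarboxylic acid cycle, which feeds NADH and succinate to the chain, also held subunits of pyruvate dehydrogenase, which is not part of the cycle. In this list 9 of 15 tested genes were above 0 (median 0.03). Its smallest p belonged to the pyruvate dehydrogenase subunits Pdha1 (-0.51 ± 0.26) and Pdhb (-1.14 ± 0.87) and to Suclg2 of succinyl-CoA ligase (-0.86 ± 0.53). For Pdhb, cKO 1 read 6.96 and the other arrays 8.82 to 10.87. For Suclg2, cKO 1 read 7.65 and the other arrays 9.13 to 9.96. Of 13 mitochondrial carriers, channels and import subunits 5 were above 0 (median -0.17, but 0.03 under median scaling and 0.01 in the deposited values). Vdac3, an outer membrane channel, gave -1.42 ± 0.91, the phosphate carrier Slc25a3 -0.74 ± 0.58 and the import motor subunit Timm44 -0.78 ± 0.62. In all 3, cKO 1 was the lowest array. The 6 measured germ cell isoforms of energy metabolism, which include the 3 testis forms of complex IV, were all above 0 (median 0.38, and 0.09 without cKO 1 and Control 3), led by the sperm glyceraldehyde-3-phosphate dehydrogenase Gapdhs (0.82 ± 0.41), which read 14.03, 13.93 and 13.83 against 13.72, 13.42 and 12.20. Control 3 was the lowest array, and without it the difference of Gapdhs was 0.36. Their sperm-specific partners Cyct, Pdha2 and Slc25a31 were detected on no array.

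The differences were also set beside the promoter motifs. Tested members with the NRF1 motif had a median difference of 0.12 and those without it 0.12. The medians were 0.04 with and 0.15 without ETS, and 0.12 with and 0.12 without YY1. These are descriptions, with 15, 16 and 10 members on the side that held the motif.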

How the data were processed

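RNA of sorted Sertoli cells was read on 6 Illumina bead arrays, 3 cKO and 3 Control; the submitters' processing notes list BeadStudio. A mean intensity, a bead number and a detection score are given for each probe, per the file headers. The deposited intensity values are linear, with no sign of scaling between arrays. Detection meant a deposited score over 0.95. The deposited series table holds log2 values that equal the log2 intensity less a quantile of each array, centred on the probe's median; its column medians were 0.244, -0.022 and -0.194 for cKO 1 to 3 and 0.040, 0.098 and -0.301 for Control 1 to 3, and its tool is not given in these sources.

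Scanner probe numbers and platform probe IDs were joined through these log2 values, with all 45281 matched (largest distance 0.000688, smallest distance to a second probe 0.00424). The platform annotation gave 34885 probes 1 gene symbol, 18 several and 10378 none; probes with several were not named.

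Intensities were put through neqc of limma 3.58.1 under R 4.3.3, which corrects background (here from detection values, offset 16) and normalises by quantiles. Probes detected on at least 3 of 6 arrays were tested (21805 probes, 12277 genes) with lmFit and eBayes, two-sided, group as the only term, Benjamini-Hochberg over all tested probes at 0.05. Values are means of 3 arrays a group; ± is the standard error, and every adjusted p is limma's. Levels of different probes are not compared. The number of arrays limits the precision. Same-numbered arrays deviated together from their group means (correlations 0.262, 0.41 and 0.473). Arrays of different numbers were not correlated in this way, and the labels do not say what a number shares. These values therefore cannot show that the arrays were paired. A fit with the replicate block was run beside the main one, and the counts by pair rest on the numbers alone.

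Named were, for each complex, the 4 genes of smallest p and the highest and lowest difference on the brightest probe, every gene with a tissue form, genes with probes of opposite sign, and the 3 genes of smallest p in each other list. A few others (Ndufv1, Ndufb6, Cox5a, Uqcrh, Atp5b, Atp5o, Ndufs4, ATP6, CYTB) were added after their values were seen. The members and lists were chosen with earlier results of these data known. Alternatives changed background, scaling, filter, probe choice, weights, the block and the arrays used.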

Additional observations from a re-analysis of the deposited data

How the results depend on the processing

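No member probe was called under any alternative run. On the brightest probes of the named members, the smallest limma adjusted p over all of them was 0.305. With the replicate block, a dimmer probe of Atp5pb, higher in cKO by 0.73, gave a limma adjusted p of 0.262. The replicate block changed no call of a member or a list; over all tested probes it left 0 called. Of all tested probes, 12 were called with offset 50, 13 without background correction, 1 without a filter, 56 with the brightest probe of each gene, 149 with array weights, 6 without cKO 1 and Control 3, and 0 to 15 when each array was left out in turn, against 31. The median difference of all members was 0.30 under median scaling, 0.28 in the deposited log2 values and 0.03 without cKO 1 and Control 3; for complex I these were 0.35, 0.33 and 0.03, and for complex IV 0.45, 0.40 and 0.04. Complex III gave 0.23 and complex V 0.18 under median scaling, and complex V 0.16 in the deposited values. The mitochondrially encoded subunits gave -0.02, -0.04 and -0.06 under these 3 settings, and the carriers and channels 0.03, 0.01 and -0.02; regulators gave -0.17 without both arrays. Under median scaling Sdhb turned to 0.05, Cox6a1 to 0.05 and Atp5g3 to 0.16, and in the deposited values to 0.03, 0.02 and 0.14. With array weights Sdhb turned to 0.06 and Cox6b1 to -0.04. Without cKO 1 and Control 3 the values were 0.03 for Ndufc2, 0.34 for Sdhb, 0.06 for Cyc1, -0.02 for Cox6b2, 0.60 for Cox7a2l, 0.46 for Atp5pb, 0.01 for Cox6a1, -0.22 for Cox6b1 and -0.03 for Cox7a2. Leaving out each array in turn gave medians of 0.06 to 0.20 for complex III, -0.22 to -0.10 for mitochondrially encoded subunits, -0.07 to 0.18 for assembly factors, -0.09 to 0.19 for electron carriers and -0.26 to 0.04 for carriers and channels, and differences of -0.03 to 0.21 for Sdhc, -0.14 to 0.29 for Sdhd, -0.42 to 0.30 for Sdhb, -0.55 to 0.04 for Cyc1, -1.31 to 0.23 for Cox7a2l, -1.36 to 0.03 for Atp5pb, -0.09 to 0.01 for Atp5g3, -0.39 to 0.08 for Cox6a1, -0.13 to 0.11 for Ndufa4, -0.11 to 0.18 for Cox6b1 and -0.06 to 0.61 for Cox7b. With both left out counted in, all members gave medians of 0.03 to 0.17, Ndufc2 -1.96 to 0.03 and Cox6b2 -0.02 to 0.76. The cause of these changes was not tested. A comparison of the protein sequences of isoform pairs was not run.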
